A study of Mus musculus with 10 samples.

Results

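A group of 8 genes that mouse embryos switch on at the two-cell stage was followed in embryonic fibroblasts and in cells reprogrammed from such fibroblasts. They are *Zscan4c*, *Zscan4d*, *Zscan4e* and *Zscan4f*, together with *Tmem92*, *Tcstv1*, *Tcstv3* and *Zfp352*, and all 8 were among the 18901 genes of the table. The genes were chosen by name as genes of the two-cell-like state, with their high level in iPS cells and near absence in MEF already known, and for *Tmem92* and *Zscan4e* the MEF against iPS contrast had singled them out. Whether levels in the other lines entered that choice is not recorded in the sources used here.

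The study asked how iPS cells derived with recombinant Netrin-1 (rNetrin-1), a secreted guidance and survival factor, compare with iPS cells derived without it. Poly(A) RNA of 10 libraries was sequenced, from 5 lines with 2 libraries each. Oct4-GFP MEF, fibroblasts in which the pluripotency gene *Oct4* is reported by green fluorescence, were sampled at passages 2 and 4. The 'control' iPS line, 'rNetrin-1-derived' iPS clone 1, 'rNetrin-1-derived' iPS clone 2 and the pre-iPS line were each sampled at passages 5 and 25. All cells came from a cross of the mouse strains mf1 and 129. The iPS lines were obtained by infecting such MEF with retroviruses for Oct4, Sox2, Klf4 and c-Myc. Pre-iPS cells are a line halted on the way to the iPS state. MEF were grown in DMEM with 10% FCS and the iPS cells in KSR medium with LIF. For pre-iPS and iPS cells the study's methods allow gelatin or irradiated MEF as a support, so the cultures could hold feeder fibroblasts. The methods also allow KSR medium with LIF either with or without the added inhibitors called 2i. A single control line stands against both rNetrin-1-derived clones, so the treatment and the line cannot be told apart. Nothing in the labels says that the passages of a line were separate cultures or clones, and the p-values measure only the spread between these libraries.

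The two-cell stage is when the mouse embryo begins to transcribe its own genome. In cultures of pluripotent cells a small and changing minority of cells re-enters a state that resembles it, with ZSCAN4 proteins and retroviral MERVL transcripts switched on together. The state is driven by the transcription factor DUX, and ZSCAN4 is known for its part in telomere lengthening and genome stability in these cells. In bulk RNA, fewer cells in that state and less RNA per such cell cannot be told apart.

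In GENCODE M21 on GRCm38, the build the files use (mm10), the *Zscan4* genes formed a cluster on chromosome 7. *Zscan4c* lay at chr7:11005745-11010547 on the plus strand, *Zscan4d* at chr7:11161374-11166159 on the minus strand, *Zscan4e* at chr7:11306378-11310682 on the minus strand and *Zscan4f* at chr7:11397915-11402318 on the plus strand, a span of 397 kb from *Zscan4c* to *Zscan4f*. *Tcstv1* (chr13:119893388-119894785, minus strand) and *Tcstv3* (chr13:120316878-120318178, plus strand) lay 422 kb apart. *Zfp352* stood alone at chr4:90218820-90225702 on the plus strand and *Tmem92* at chr11:94777217-94782703 on the minus strand. The annotation gave all 8 as protein coding, and no other gene overlapped any of them.

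The RefSeq promoter table, build GRCm38.p6, held 4 of the 8 genes: *Zscan4c*, *Zscan4d*, *Zscan4f* and *Zfp352*. The 250 bases before the start are shown for 3 of these. That of *Zscan4f* is left out, and it was 99.6% identical to that of *Zscan4c* over 227 aligned bases. Capitals in the *Zscan4* promoters mark TGATTCAA, the beginning of the sequence that mouse DUX is known to bind, and TATAAA, the core of a TATA box. In the *Zfp352* promoter they mark ACAACACAC, a repeat noticed on reading that promoter. Each is printed 5′ to 3′ on the gene's strand.
Zscan4c, chr7:11005495-11005744, plus strand: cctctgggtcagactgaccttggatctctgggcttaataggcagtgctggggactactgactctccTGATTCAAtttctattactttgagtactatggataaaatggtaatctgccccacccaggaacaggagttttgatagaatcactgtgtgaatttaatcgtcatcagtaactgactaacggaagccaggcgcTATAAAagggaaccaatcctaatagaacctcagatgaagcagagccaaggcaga
Zscan4d, chr7:11166149-11166398, minus strand: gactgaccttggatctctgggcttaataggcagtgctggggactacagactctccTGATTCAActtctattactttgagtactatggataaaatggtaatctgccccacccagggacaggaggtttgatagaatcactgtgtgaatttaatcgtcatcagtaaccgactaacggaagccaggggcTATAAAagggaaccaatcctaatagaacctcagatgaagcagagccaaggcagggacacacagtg
Zfp352, chr4:90218570-90218819, plus strand: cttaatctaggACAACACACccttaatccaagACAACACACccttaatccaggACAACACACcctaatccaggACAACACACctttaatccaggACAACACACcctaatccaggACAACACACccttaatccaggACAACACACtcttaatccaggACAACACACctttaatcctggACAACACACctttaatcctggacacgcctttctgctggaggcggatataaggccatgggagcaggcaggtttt

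TGATTCAA began 184 bases before the start of *Zscan4c*, 195 before that of *Zscan4d* and 161 before that of *Zscan4f*. Distances are from the RefSeq starts. For *Zscan4d* that start lies inside the GENCODE gene, which reaches 11166159, so the last bases printed for it overlap the gene. With both strands searched, 0.577% of 27025 promoters of this length held these letters. TATAAA stood 54, 65 and 31 bases before the start in the same order, and 13.0% of promoters held it. The *Zscan4c* and *Zscan4f* promoters were 99.6% identical over 227 aligned bases, and those of *Zscan4c* and *Zscan4d* 97.5% over 238. The *Zfp352* promoter held neither motif but 9 copies of the repeat, which was present in 0.226% of promoters. None of these motifs overlapped another in the promoters searched, and a match of letters is a description and not a bound site.

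The near identity of the *Zscan4* genes limits how far they can be told apart. The coding sequences of *Zscan4c* and *Zscan4f* differed at 6 of their 1518 bases, an identity of 99.6%, and the other pairs of *Zscan4* genes among the 8 were 96.6% to 97.7% identical. Reads were 50 bases long, and only 14.5% of the 50-base words in *Zscan4c* transcripts occurred in no other gene's transcripts. The share was 50.4% for *Zscan4d*, 11.0% for *Zscan4e* and 13.2% for *Zscan4f*, and 10 other genes held the rest: the other *Zscan4* genes and pseudogenes, *Gm17737* and *Gm45551*. How the counting treated reads that match several copies is not given in the sources used here, so the division of reads among these 4 genes is uncertain. *Tmem92* (98.1%) and *Zfp352* (92.9%) were nearly free of this overlap, *Tcstv1* (85.0%) and *Tcstv3* (68.6%) less so. *Tcstv1* and *Tcstv3* were 93.6% identical in their coding sequences.

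The libraries held 38110410 to 52946856 reads on genes. The deposited values are pseudo-counts, read counts that edgeR brought to a common library size, and 1 read was worth 0.888 to 1.18 units. The 12 fibroblast markers fixed as a list summed to 3148825 to 3301462 in MEF and to 27058 to 52127 in the pre-iPS and iPS libraries, where they were low but not absent. *Nanog*, a defining gene of the pluripotent state, had values of 2489 to 7441 in the iPS lines, of 311 to 349 in pre-iPS and of 34.5 to 36.9 in MEF. Not every such gene was low in pre-iPS: *Zfp42* stood there at 6512 and 6101, against 47.6 and 51.7 in MEF and 2109 to 15153 in the iPS lines.

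In MEF and pre-iPS cells the 8 genes were close to silent, while each had many reads in every iPS library. A member had 0 to 7 reads in a MEF library, 2 to 21 in a pre-iPS library and 237 to 8434 in an iPS library. Together they took 20 to 28 reads in a MEF library, 65 to 90 in a pre-iPS library and 5435 to 34776 in an iPS library. The values by library show these levels side by side.

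**Figure D1:**
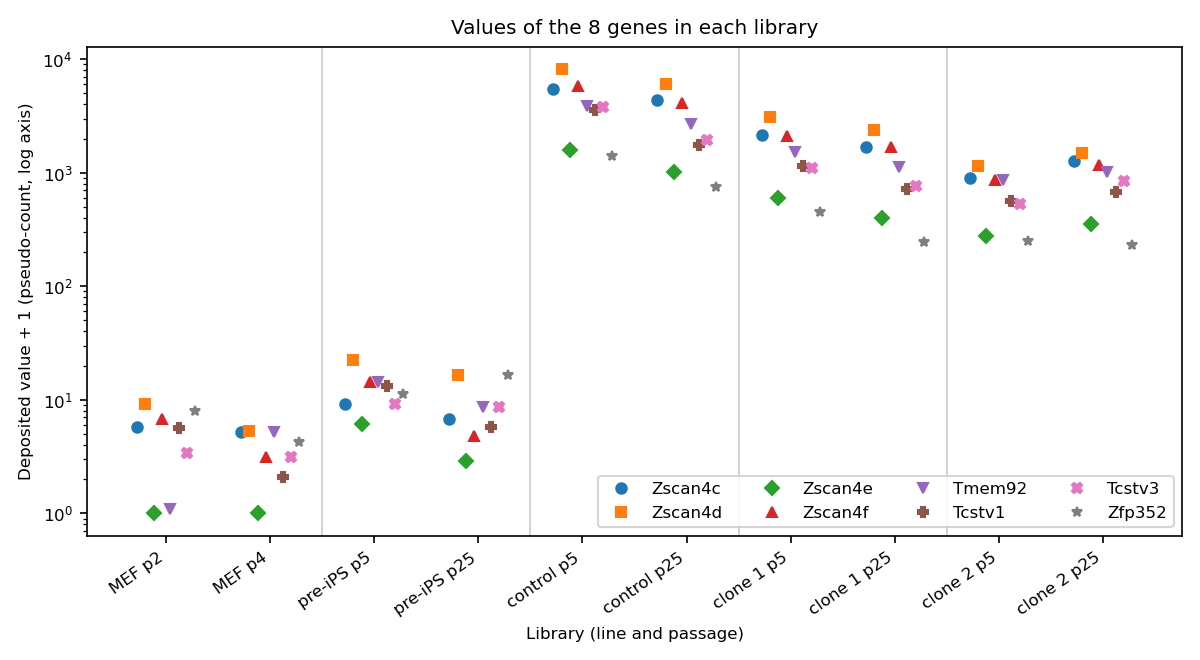
Deposited value plus 1 (pseudo-counts, log axis) of the 8 genes in each of the 10 libraries, 1 point per gene and library. All MEF and pre-iPS values lie at or below 21.4 and all iPS values at or above 230, and within iPS the control libraries are highest for every gene.

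*Zscan4d*, known as the main copy of the two-cell embryo, had the highest values of the 4 copies. It stood at 8.12 and 4.27 in MEF (passages 2 and 4), 21.4 and 15.4 in pre-iPS (passages 5 and 25), 8156 and 6004 in the control line, 3096 and 2398 in clone 1 and 1150 and 1490 in clone 2. *Zscan4c*, known as the main copy in embryonic stem cells, stood at 4.73 and 4.23 in MEF, 8.16 and 5.76 in pre-iPS, 5472 and 4342 in the control, 2143 and 1698 in clone 1 and 892 and 1276 in clone 2. Both genes gave the 5 lines in the same order, and no iPS library overlapped a MEF or pre-iPS library. *Zscan4f*, a zinc finger protein with a SCAN domain like the others, stood at 5.77 and 2.16 in MEF, 13.3 and 3.84 in pre-iPS, 5782 and 4119 in the control, 2108 and 1675 in clone 1 and 862 and 1173 in clone 2. *Zscan4e*, which RefSeq lists as a pseudogene, had no read in either MEF library, 5.1 and 1.92 in pre-iPS, 1591 and 1006 in the control, 597 and 400 in clone 1 and 276 and 349 in clone 2. It was the lowest of the 4 *Zscan4* genes in each iPS library. Its mean in iPS was at least 271-fold above the level that 3 reads in a MEF library would give, which covers counting error only. Summed over the 6 *Zscan4* genes of the table, a sum that depends less on how reads were divided among them, the values came to 24.4 and 12.8 for MEF, 64.3 and 33.6 for pre-iPS, 27578 and 19914 in the control, 10452 and 7852 in clone 1 and 4199 and 5694 in clone 2.

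*Tmem92*, a transmembrane protein gene whose reads are nearly all its own, stood at 0.0903 and 4.17 in MEF, 13.3 and 7.68 in pre-iPS, 3855 and 2663 in the control, 1520 and 1111 in clone 1 and 866 and 1019 in clone 2. *Zfp352*, a zinc finger gene of early embryos, stood at 6.94 and 3.22 in MEF, 10.2 and 15.4 in pre-iPS, 1403 and 746 in the control, 454 and 243 in clone 1 and 247 and 230 in clone 2. Both genes kept the control line on top, but the *Zfp352* value of clone 1 at passage 25 lay between the values of clone 2. *Tcstv1*, of a gene family variable at the two-cell stage, stood at 4.59 and 1.1 in MEF, 12.2 and 4.8 in pre-iPS, 3589 and 1753 in the control, 1136 and 711 in clone 1 and 568 and 678 in clone 2. *Tcstv3*, of the same family, stood at 2.37 and 2.12 in MEF, 8.16 and 7.68 in pre-iPS, 3780 and 1951 in the control, 1110 and 770 in clone 1 and 530 and 847 in clone 2. For *Tcstv3* clone 2 at passage 25 was above clone 1 at passage 25, so these clones overlapped.

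Values per kilobase of exon allow for the length of a gene but not for reads shared among copies, so ranks among the copies are uncertain. On that scale *Tcstv3* had the highest value in the control line at passage 5, with 4852, followed by *Zscan4d* with 3590, *Zscan4f* with 2952, *Tcstv1* with 2567, *Zscan4c* with 2404 and *Tmem92* with 1763. *Zscan4e* with 887 and *Zfp352* with 616 were lowest. At passage 25 of the same line *Zscan4d* (2643) was above *Tcstv3* (2504), so the leading place changed with the library. The make-up of the summed value was similar in all iPS libraries: *Zscan4d* took 21.1% to 26.6%, *Tmem92* 11.5% to 16.1% and *Zfp352* 2.7% to 4.58%.

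The difference between MEF and iPS is a property for which these genes were chosen, and it is given as a description. The mean of the MEF libraries was 0% to 0.917% of the mean of the 6 iPS libraries, with a median over the 8 genes of 0.159%. All 8 lay below every iPS library in both MEF libraries, as did 41.9% of the 17075 genes tested. The log2 differences, on the log2(value + 1) scale, ran from -9.38 for *Tmem92* to -6.23 for *Zfp352*.

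Pre-iPS cells were set against the same iPS libraries, so the high iPS side of the contrast is again what the genes were chosen for, and these values are also a description. The mean of the pre-iPS libraries was 0.264% (*Zscan4c*) to 2.31% (*Zfp352*) of the iPS mean, with a median of 0.514%. All 8 genes lay below every iPS library, against 21.7% of the genes tested. Log2 differences ran from -8.09 to -5.00 with a median of -7.12, beside a median of 0.001 over all genes tested. In 7 of the 8 genes the pre-iPS value was higher at passage 5 than at passage 25, from at most 21 reads a gene.

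Among the iPS lines the control carried the most RNA of every one of the 8 genes. For each gene both control libraries lay above all 4 rNetrin-1-derived libraries, a pattern that 11.1% of the genes tested also showed in this direction. The mean of the control libraries was 2.89 times (*Tmem92*) to 3.66 times the mean of the rNetrin-1-derived libraries, with a median of 3.42. An exact two-sided permutation test of 2 libraries against 4 cannot go below p = 0.0667, and each of the 8 genes gave that value.

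In limma's fit across all genes, 5 of the 8 were called lower in the rNetrin-1-derived lines than in the control, beside 1.12% of the genes tested, a call being an adjusted p under 0.05 with an absolute log2 difference of at least 1. *Zscan4c* differed by -1.77 on the log2 scale (SE 0.22, limma adjusted p = 0.00532) and *Zscan4d* by -1.89 (SE 0.26, limma adjusted p = 0.00904). *Tcstv3* (-1.79, SE 0.31, limma adjusted p = 0.0192), *Zscan4e* (-1.70, SE 0.35, limma adjusted p = 0.0364) and *Zfp352* (-1.86, SE 0.39, limma adjusted p = 0.0378) were the others. *Zscan4f* (-1.83, limma adjusted p = 0.0641), *Tcstv1* (-1.75, limma adjusted p = 0.1) and *Tmem92* (-1.54, limma adjusted p = 0.178) had differences of like size and did not pass. The within-line SD over all 5 lines was 0.65, 0.71 and 0.78 for these 3 genes and 0.26 to 0.53 for the other 5. With only the control and the rNetrin-1-derived lines in the fit, *Zscan4c*, *Zscan4d*, *Zscan4f* (limma adjusted p = 0.0246) and *Tmem92* (limma adjusted p = 0.0338) were called, beside 0.445% of genes. In that fit *Tcstv1*, *Zscan4e* (limma adjusted p = 0.0519), *Tcstv3* and *Zfp352* (limma adjusted p = 0.0725 for both) were not. The median over the 8 genes was -1.78, beside -0.007 over all genes tested.

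With a passage block, which leaves out MEF, all 8 genes were called lower, beside 1.69% of genes. edgeR on the recovered reads, added after seeing the data, also called all 8, beside 1.41%. Without the control library of passage 5, which left 1 control library, the 5 genes of the main fit kept differences of -1.67 (*Zscan4d*) to -1.31 (*Tcstv3*). Without that of passage 25, *Zscan4e* differed by -2.03 and *Zfp352* by -2.31. Fewer of the 8 were called in both fits, as were fewer of all genes. Fewer of the 8 were also called without clone 1 at passage 25 or without either library of clone 2. Over all genes the calls fell there too, except without clone 2 at passage 25.

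Each clone was also compared with the control by itself, and clone 2 was the further from it at passage 5. There the control value was 2.54 to 3.41 times that of clone 1 and 4.45 to 7.14 times that of clone 2. At passage 25 it was 2.4 to 3.07 times that of clone 1 and 2.3 to 4.03 times that of clone 2. Against clone 1, 1 gene was called lower, *Zscan4c* (-1.35, SE 0.25, limma adjusted p = 0.0352), beside 0.638% of genes, and 7 of 8 had an unadjusted p under 0.05. The count was 6 with the passage block, beside 1.31%, and 5 with edgeR, beside 0.873%. The single limma call rests on each library of the control, of clone 1 and of MEF. With these left out in turn, *Zscan4c* differed by -1.52 to -1.18, and fewer of all genes were called as well.

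Against clone 2, 6 genes were called lower, beside 1.31% of genes, with *Zscan4d* at -2.42 (SE 0.30, limma adjusted p = 0.00608) and *Zscan4c* at -2.19 (SE 0.25, limma adjusted p = 0.0045). *Tcstv1* (-2.01, limma adjusted p = 0.0976) and *Tmem92* (-1.77, limma adjusted p = 0.171) did not pass. With the passage block all 8 were called, beside 2.17%, and edgeR called all 8, beside 1.53%. Without any 1 library of the control or of clone 2, fewer of the 8 were called, as were fewer of all genes. *Zscan4e* differed by -2.36 to -1.70 in those fits.

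**Figure D2:**
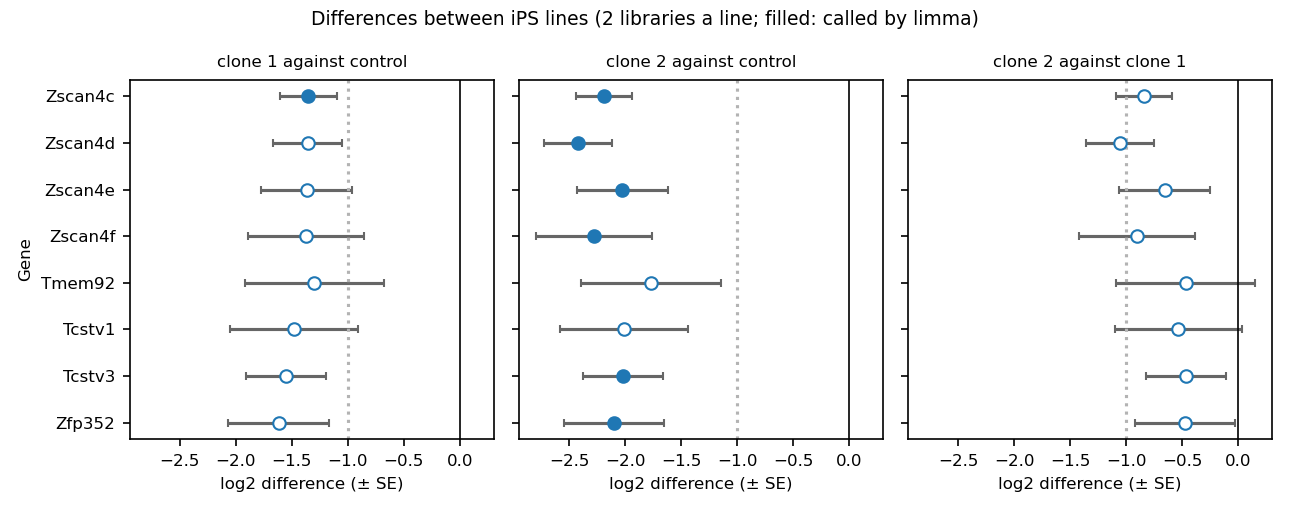
Log2 difference (limma, log2(value + 1), bars ± SE) of the 8 genes for clone 1 against control, clone 2 against control and clone 2 against clone 1, with 2 libraries per line. Filled points were called, the dotted line is the fold limit of -1, and all differences lie below 0.

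Between the clones all 8 differences pointed to lower values in clone 2, from -1.06 for *Zscan4d* to -0.46 for *Tcstv3*, with a median of -0.59. None of the 8 was called by limma, beside 0.252% of genes called lower, and 2 had an unadjusted p under 0.05. *Zscan4d* was called with the passage block (-1.06, limma adjusted p = 0.0399), beside 0.621% of genes, and by edgeR (-1.05, edgeR adjusted p = 0.0462), beside 0.269%.

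Ordered by level, 6 of the 8 genes gave the same sequence of iPS libraries, from the control at passage 5 through the control at passage 25, clone 1 at passage 5, clone 1 at passage 25 and clone 2 at passage 25 to clone 2 at passage 5. *Tcstv3* and *Zfp352* differed from it only in the last 3 places. Pearson's r between 2 of the 8 genes over the 6 iPS libraries was 0.94 to 0.999, with a median of 0.984 over 28 pairs. The libraries are few and fall by line, and the *Zscan4* genes can share reads, so these correlations are a description.

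Passage was compared within the lines. In the control and in clone 1 each of the 8 genes was lower at passage 25 than at passage 5, by 0.33 to 1.03 on the log2 scale in the control and by 0.33 to 0.90 in clone 1. In clone 2, 7 of the 8 were higher at passage 25, with *Tcstv3* up most at 0.68, and *Zfp352* was at -0.10. Each of these is 1 library against 1, with no replicate check. With the line taken as a block across the 4 reprogrammed lines, none of the 8 genes was called in either direction, beside 1.29% of genes called lower and 0.398% called higher, and 1 had an unadjusted p under 0.05 in limma and 2 in edgeR, which called none. The limma differences ran from -0.66 (*Tcstv1*) to -0.15 (*Zscan4c*). Without either library of clone 2, *Tcstv1* (-0.97), *Tmem92* (-0.57) and *Zscan4d* (-0.42) passed an adjusted p of 0.05 in limma but stayed under the fold limit.

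**Figure D3:**
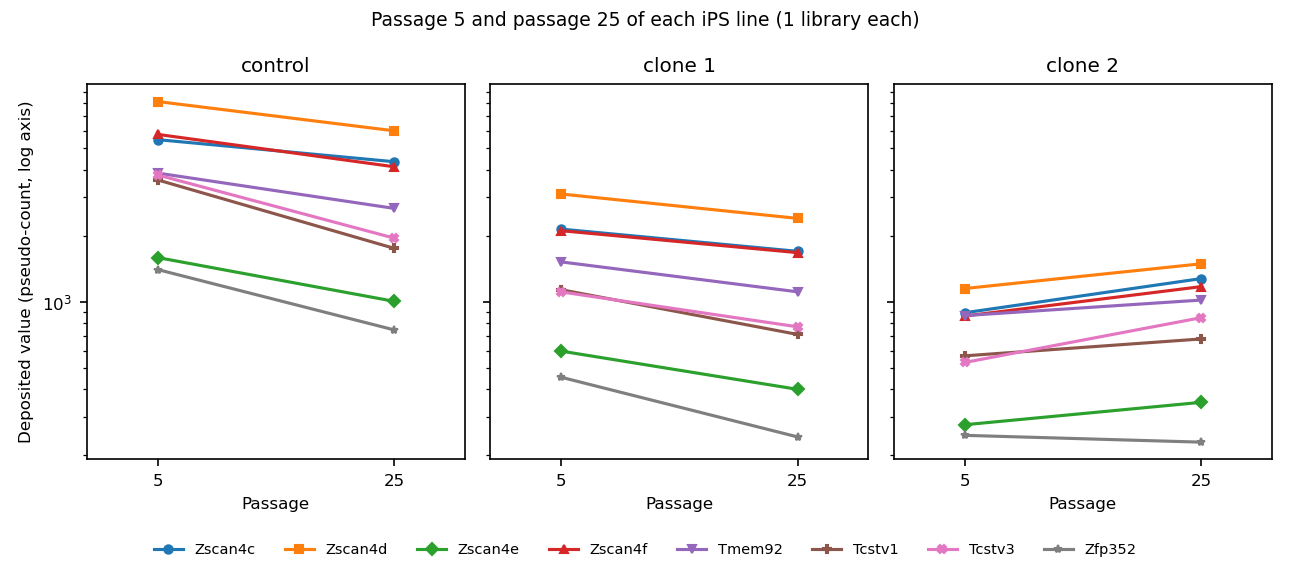
Deposited values (pseudo-counts, log axis) of the 8 genes at passages 5 and 25 in the control line, clone 1 and clone 2, with 1 library per point. Every line falls in the control and in clone 1, and in clone 2 all but *Zfp352* rise.

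Other genes of the two-cell-like state were taken from a list of 54 names, of which 42 were in the table and all 42 passed the filter. Some share 50-base words with the 8 and could share their reads. *Zscan4a* and *Zscan4b* do so with the *Zscan4* genes, and *AF067061*, *Gm20767* and *B020031M17Rik* with *Tcstv1*. In the rNetrin-1-derived lines 16 of the 42 were called lower than in the control and none higher, with a median log2 difference of -1.60, and edgeR called 31 lower, beside 1.12% and 1.41% of all genes tested. They included *Arg2*, the mitochondrial arginase (-1.86, limma adjusted p = 0.00693), the olfactory receptor gene *Olfr376* (-2.05, limma adjusted p = 0.012) and *Zscan4a*, a neighbour of the cluster that GENCODE lists as a pseudogene (-1.79, limma adjusted p = 0.0439). *Gm8994* (-1.84, limma adjusted p = 0.0184) had the highest values of the list, with 54460 and 39636 in the control, 17030 and 14095 in clone 1 and 8508 and 13810 in clone 2. Against clone 1 alone limma called 3 lower and edgeR 17, beside 0.638% and 0.873% of all genes. Against clone 2 alone limma called 19 and edgeR 29, beside 1.31% and 1.53%. Between the clones 2 were called higher in clone 2, beside 0.714% of all genes tested, *Pramel6* (2.77, limma adjusted p = 0.0142) and *Pramel7* (2.19, limma adjusted p = 0.0412), which went against the direction of the 8 genes. With only the clones in the fit, limma called 2 of all genes tested higher in clone 2, and that fit was not broken down by list. None of the 42 was called by limma or edgeR between the passages, with 7 at an unadjusted p under 0.05 in limma.

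*Dux*, the transcription factor that switches the state on, was listed at 618 and 520 in the control, 231 and 226 in clone 1 and 103 and 223 in clone 2, and at 0 to 1.92 in MEF and pre-iPS. Its control libraries lay above those of both clones, as did those of 11.1% of genes. limma's main fit did not call it in the rNetrin-1-derived lines against the control (-1.60, SE 0.51, limma adjusted p = 0.139). Nor did that fit call it in any other comparison among the iPS lines. The spread of its values near 0 in MEF and pre-iPS enters that SE, and its edgeR result is not given here. Among 11 activators of the state, including the chromatin factors *Dppa2* and *Dppa4*, limma called none among the iPS lines, with 3 to 6 at an unadjusted p under 0.05 depending on the comparison, and edgeR called 1, *Dppa2*, lower in clone 1 than in the control. The median difference of the rNetrin-1-derived lines from the control was -0.12. *Nelfa*, a subunit of the negative elongation factor, stood at 11635 and 8743 in the control against 4517 to 5776 in the 4 other iPS libraries. *Dppa4* and *Dppa2* were called lower in pre-iPS than in iPS (-5.12 and -4.13, limma adjusted p = 1.9e-05 and 3.82e-05), as were 11.6% of the genes tested. Among 28 repressors of the state, such as *Kdm1a*, *Trim28* and the subunits of the chromatin assembly factor *Chaf1a* and *Chaf1b*, limma and edgeR called none among the iPS lines, with 2 to 10 at an unadjusted p under 0.05 in limma, and their median was -0.07 for the rNetrin-1-derived lines. *Lin28a*, an RNA-binding protein on that list, was called lower in pre-iPS (-7.02, limma adjusted p = 3.06e-06).

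**Figure D4:**
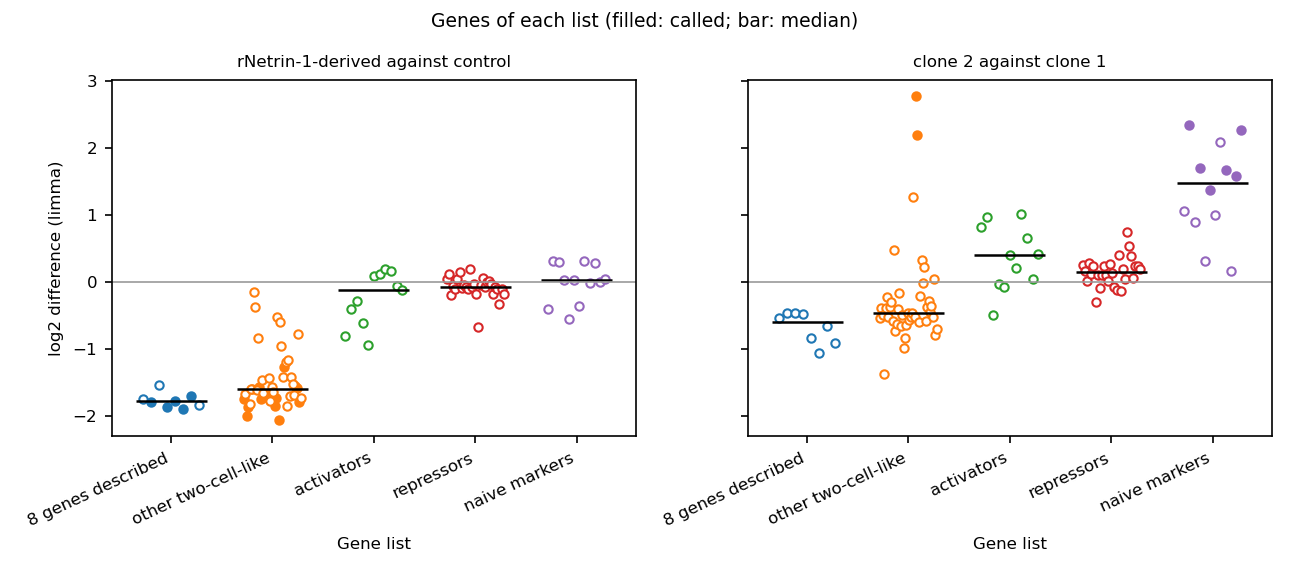
Log2 differences (limma) of each gene of 5 lists, for the rNetrin-1-derived lines against the control and for clone 2 against clone 1, with called genes filled and a bar at each median. The 8 genes and the other two-cell-like genes sit around -1.78 and -1.60 on the left while activators, repressors and naive markers sit near 0, and on the right the naive markers have a median of 1.48.

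Naive pluripotency markers put the iPS lines in another order. None of the 12 was called by limma or edgeR in rNetrin-1-derived iPS against the control, with 1 at an unadjusted p under 0.05 in limma and a median of 0.03. The clones lay on either side of that median: against the control it was -0.81 in clone 1, with 6 of 12 at an unadjusted p under 0.05, and 0.77 in clone 2, with 8 of 12, and neither tool called any. In clone 2 the mean of each of the 8 genes was lowest, but 6 of the 12 were called higher there than in clone 1, beside 0.714% of all genes called higher and 0.252% called lower: *Esrrb* (2.35, limma adjusted p = 0.0401), *Zfp42* (2.27, limma adjusted p = 0.0121), *Klf2*, *Tbx3*, *Tfcp2l1* and *Nanog*. edgeR also called 6 of the 12 higher in clone 2, beside 147 of the 17075 genes tested. With only the 2 clones in the fit, limma called just 2 of all genes tested higher in clone 2, so most of these 6 calls depend on the other lines. The summed value of the 12 was 49158 and 28624 in the control, 33359 and 26357 in clone 1 and 59466 and 64136 in clone 2.

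Markers of other cells that the cultures could hold are given beside these differences, and their part in them was not tested. The 12 fibroblast markers summed to 27058 and 35923 in the control, 52127 and 40499 in clone 1 and 42182 and 32585 in clone 2. *Fap* alone was called higher in rNetrin-1-derived iPS than in the control (1.44, limma adjusted p = 0.036), beside 169 of the 17075 genes tested. Its values were low, 8.7 and 4.18 in the control and 16.4 to 20.8 in the clones. edgeR called 1 marker higher in that comparison and 1 in clone 2 against the control, beside 146 and 204 of all genes. The 10 primitive endoderm markers summed to 458666 and 448655 in MEF, of which *Sparc* made 371893 and 364892. *Pdgfra* is also on the fibroblast list, so this sum does not tell endoderm from fibroblasts. In the iPS lines it was 47687 and 26139 in the control, 52896 and 27552 in clone 1 and 34798 and 21312 in clone 2. For the 10 trophoblast markers the sums were 25883 and 11140, 28301 and 10828, and 19832 and 11539 in the same order. From these endoderm and trophoblast lists limma and edgeR called no gene among the iPS lines, with 0 to 6 at an unadjusted p under 0.05 in limma. Both sums were lower at passage 25 in every iPS line. The passage fit also holds the pre-iPS line. In it 1 of 10 primitive endoderm markers (*Sparc*) and 4 of 10 trophoblast markers were called lower at passage 25, beside 1.29% of genes.

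The genes whose pattern was most like that of the *Zscan4* genes were found over the 8 pre-iPS and iPS libraries, by Pearson's r of log2(value + 1) with the mean of the 4 *Zscan4* genes, among 4171 genes that varied enough to be compared. The 5 closest outside the 8 were *BC147527*, *Zscan4a*, *Gm12794*, *Gm8994* and *A430089I19Rik*, with r of 0.999 to 1.0 over the 8 libraries and 0.984 to 0.998 over the 6 iPS libraries. *BC147527* had values of 13148 and 8543 in the control, 4861 and 3527 in clone 1, 2113 and 2738 in clone 2 and 41.8 and 20.2 in pre-iPS, and it shares 50-base words with *Tcstv3*. *A430089I19Rik*, at 514 and 383 in the control and 83.3 and 139 in clone 2, was the lowest of the 5. *Zfp352*, the least alike of the 8, ranked 142nd by the same measure.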

How the data were processed

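Poly(A) RNA of 10 mouse libraries was read as 50-base single reads, all 10 on 1 lane. Per the submitters' processing notes, CASAVA 1.8.2, FastQC, TopHat2 2.0.8b, HTSeq 0.5.3p9, edgeR and the mm10 build were used. The authors deposited 1 table of 18901 genes, whose unit is treated as a normalized signal: read counts brought to a common library size as edgeR pseudo-counts. Columns without a sample numbered 0. Whole reads were recovered by inverting that step, with 99.98% to 100% of values whole within 0.05 reads. Run forward at a common dispersion of 0.000389, they returned the 165628 values above 5 with a median relative difference of 6.8e-07%. No listed gene had fewer than 10 reads in all.

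Testing was limited to the 17075 genes reaching 10 in 2 or more libraries. limma 3.58.1 in R 4.3.3 was fitted to log2(value + 1), with a trend, 1 mean per line over all 10 libraries and Benjamini-Hochberg adjustment. Fold changes on that scale understate those of low genes. The passage comparison left out MEF and had the line as a block. A call needed both an adjusted p below 0.05 and a log2 difference of 1 or more in size. The scripts were tested on simulated data. Samples were grouped by the line and passage in the labels. Passages paired the lines: deviations of passage 25 from the line means correlated at 0.235 to 0.504 over 6 pairs of lines, and a replicate block on the passage was tried.

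Other alternatives were pseudocounts of 5 and 0.5, no filter, a mean of at least 50, quantile normalization, only the lines compared, the adjusted p alone and leaving out each library. edgeR 4.0.16 (quasi-likelihood, TMM) on the recovered reads was added after seeing the data, and it called 387 genes for rNetrin-1-derived iPS against the control, where limma called 360. The genes named were the 8, the 5 most like the *Zscan4* genes (SD of at least 0.5, median of at least 10), and from each list up to 6 called genes and the 3 highest. *Dux*, *Nelfa*, *Nanog*, *Kdm1a*, *Trim28*, *Chaf1a* and *Chaf1b* were named with their values seen. The 8 genes and the lists were chosen with earlier results of these data known. Promoters are from RefSeq (GRCm38.p6) and positions and transcripts from GENCODE M21. The strand setting of the counting is not given in the sources used here.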

Additional observations from a re-analysis of the deposited data

Results flagged for a closer look

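From passage 5 to passage 25 the 8 genes went opposite ways in the iPS lines. All 8 were lower at passage 25 in the control and in clone 1, while 7 were higher in clone 2. The log2 differences in clone 2 were 0.52 for *Zscan4c*, 0.37 for *Zscan4d*, 0.34 for *Zscan4e*, 0.44 for *Zscan4f*, 0.23 for *Tmem92*, 0.25 for *Tcstv1* and 0.68 for *Tcstv3*. In the control the same 7 genes had differences of -1.03 to -0.33. Each change is 1 library against 1, and the difference between the lines was not tested.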

How the results depend on the processing

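The number of the 8 genes called lower in the rNetrin-1-derived lines than in the control was 5, beside 191 of the 17075 genes tested. It was 8 with a pseudocount of 5 (beside 268) and with quantile normalization (beside 254). It was also 8 with the replicate block on the passage (beside 289) and with edgeR (beside 241). This count fell or stayed the same when 1 library was left out. Against clone 1 the count of 1, beside 109 of all genes called lower, became 2 with a pseudocount of 5, beside 168. It was 3 with quantile normalization, beside 171, 6 with the block, beside 224, and 5 with edgeR, beside 149. With only the lines compared it was 0, and 0 of all genes tested were called in that fit. Against clone 2 the count of 6, beside 223 of all genes called lower, became 1 with only the lines compared, beside 13. It was also lower when 1 library was left out. Between the clones the count of 0, beside 43 of all genes called lower, became 1 with the block, beside 106, and 1 with edgeR, beside 46. The median MEF difference of -8.67 became -7.6 with a pseudocount of 5 and -7.58 with quantile normalization, and the MEF values are near 0. The passage difference of *Tcstv3*, -0.22, ran from -0.52 without either clone 2 library to 0.02 without either control library. No other difference of the 8 genes changed sign, and beyond the counts above the block changed only the calls of *Tmem92* and *Tcstv1* against clone 2. The cause of these changes was not tested.

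Over all genes, calls for rNetrin-1-derived iPS against the control numbered 360, against 134 with only the lines compared, 564 with the block and 697 without the fold limit. For pre-iPS against iPS the 2781 calls were 804 higher and 1977 lower, and under quantile normalization 1483 higher and 1426 lower. The 2 libraries a line and 1 control line set what can be shown. Counting error is largest in MEF and pre-iPS, where a member had at most 21 reads. The main limma fit pools the spread of all 10 libraries, so that error also enters the SE of the differences among the iPS lines.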
